A study of Homo sapiens with 26 samples.

Results

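A set of 4 ribosome footprint libraries of K562 cells, 1 NEBNext and 1 undepleted library at each of 2 fragment size ranges, were compared gene by gene. They are 4 of the 26 libraries of the series and were chosen as the columns of its size-selection table, by their titles and not by any measured value. K562 is a human cell line from a chronic myeloid leukaemia that carries fetal-type globin and other erythroid messages. All 4 libraries came from K562 cells grown in RPMI with 10% serum, lysed with cycloheximide and digested with RNase I, so that the deposited counts stand for mRNA fragments held inside ribosomes. In the first size range, labelled 20 to 34 nt, the NEBNext library held 441249 counts on coding sequences and the undepleted library 190243. In the second, labelled 20 to 60 nt, the NEBNext library held 199707 counts and the undepleted library 46858. The general protocol of the series gives an upper limit of 34 nt for the gel cut, and the sizes used here are those in the titles and size labels. Both libraries titled undepleted also carry a depletion label that names NEBNext, so every direction below rests on the titles. There is 1 library for each kit and size, no label says that the libraries came from separate cultures, and p-values therefore measure only the spread between these libraries, which may be technical.

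In ribosome profiling, nuclease digestion leaves behind the stretch of mRNA that a ribosome covers, and most of the RNA recovered with it is cut rRNA. Depletion kits remove that rRNA before sequencing. NEBNext kits do so with DNA probes that pair with rRNA and with RNase H, an enzyme that cuts RNA paired to DNA. A message that loses footprints in such a step, or that gains footprints relative to others, changes its apparent translation. By its title, the series asks whether depletion with a nuclease biases footprint libraries.

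The sequences below are the coding stretches of genes with some of the largest rises and falls, read from GENCODE release 29 on GRCh38 without the stop codon. CCNC is shown for the size of its rise, and the others because they are short or hold long runs of purines (A and G), a feature compared across genes further on. Capitals mark the longest run of A and G on the coding strand, except in MT-ATP8, where they mark the part that also lies in the gene MT-ATP6. KCNH8, CCNC and PTMA are shown as windows of 90 bases around that run, and the other genes as the whole coding sequence. The first 4 lines are genes that were higher with NEBNext and the last 3 are genes that were lower.
KCNH8 (3321 bases, window from 2109 to 2198): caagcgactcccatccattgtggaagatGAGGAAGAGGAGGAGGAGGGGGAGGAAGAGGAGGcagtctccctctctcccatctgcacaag
CCNC (849 bases, window from 698 to 787): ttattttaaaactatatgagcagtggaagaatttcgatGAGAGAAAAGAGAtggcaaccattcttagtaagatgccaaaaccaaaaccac
RPS29 (168 bases): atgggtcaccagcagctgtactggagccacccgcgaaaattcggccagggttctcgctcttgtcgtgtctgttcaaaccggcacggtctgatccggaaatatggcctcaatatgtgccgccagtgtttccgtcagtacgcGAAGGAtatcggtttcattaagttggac
MT-ATP8 (204 bases): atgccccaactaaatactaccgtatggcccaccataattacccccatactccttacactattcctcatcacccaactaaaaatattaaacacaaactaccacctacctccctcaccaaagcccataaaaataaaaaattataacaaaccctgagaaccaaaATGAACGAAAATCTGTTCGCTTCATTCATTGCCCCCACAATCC
HMGN2 (270 bases): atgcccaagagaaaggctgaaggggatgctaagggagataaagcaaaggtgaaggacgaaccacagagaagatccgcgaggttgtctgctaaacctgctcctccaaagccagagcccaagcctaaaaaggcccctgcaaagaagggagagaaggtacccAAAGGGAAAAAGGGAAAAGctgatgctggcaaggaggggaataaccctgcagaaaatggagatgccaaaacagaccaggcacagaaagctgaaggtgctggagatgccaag
TMSB4X (132 bases): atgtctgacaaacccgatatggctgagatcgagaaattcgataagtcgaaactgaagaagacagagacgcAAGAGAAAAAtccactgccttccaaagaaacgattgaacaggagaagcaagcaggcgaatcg
PTMA (333 bases, window from 151 to 240): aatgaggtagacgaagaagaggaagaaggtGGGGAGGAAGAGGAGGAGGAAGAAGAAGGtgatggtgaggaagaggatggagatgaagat

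Of 3715 genes tested with edgeR's quasi-likelihood test, with size range as an additive term, 106 differed between NEBNext and undepleted libraries at a Benjamini-Hochberg adjusted p under 0.05, which is 2.85% of the genes tested. Footprints were higher with NEBNext at 71 genes (1.91%) and lower at 35 genes (0.942%). Of these, 26 rose and 21 fell at least 2-fold. In 69 of the 71 and 34 of the 35, both NEBNext libraries lay on the same side of both undepleted ones in CPM (the count scaled to its library total). Over all 3715 genes tested, 712 lay above in this way and 919 below, so that such separation is common among genes that were not called. The 12 largest rises and 12 largest falls named below were chosen partly by this separation, so for them it is not a result. Scaled by total counts alone in place of TMM factors, 38 genes were higher and 34 lower. The number of calls changed with the model and with single libraries. With the size term dropped, 40 genes were called. In each fit that left out 1 of these 4 libraries, here and below, the size term was dropped too. Compared with the 40, fewer genes were called without either undepleted library and more without either NEBNext library. DESeq2 called 16 genes. The 5 genes KCNH8, CCNC, MT-ATP8, MT-CO2 and RPS29 were called in each of the 12 alternatives tried.

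**Figure D1:**
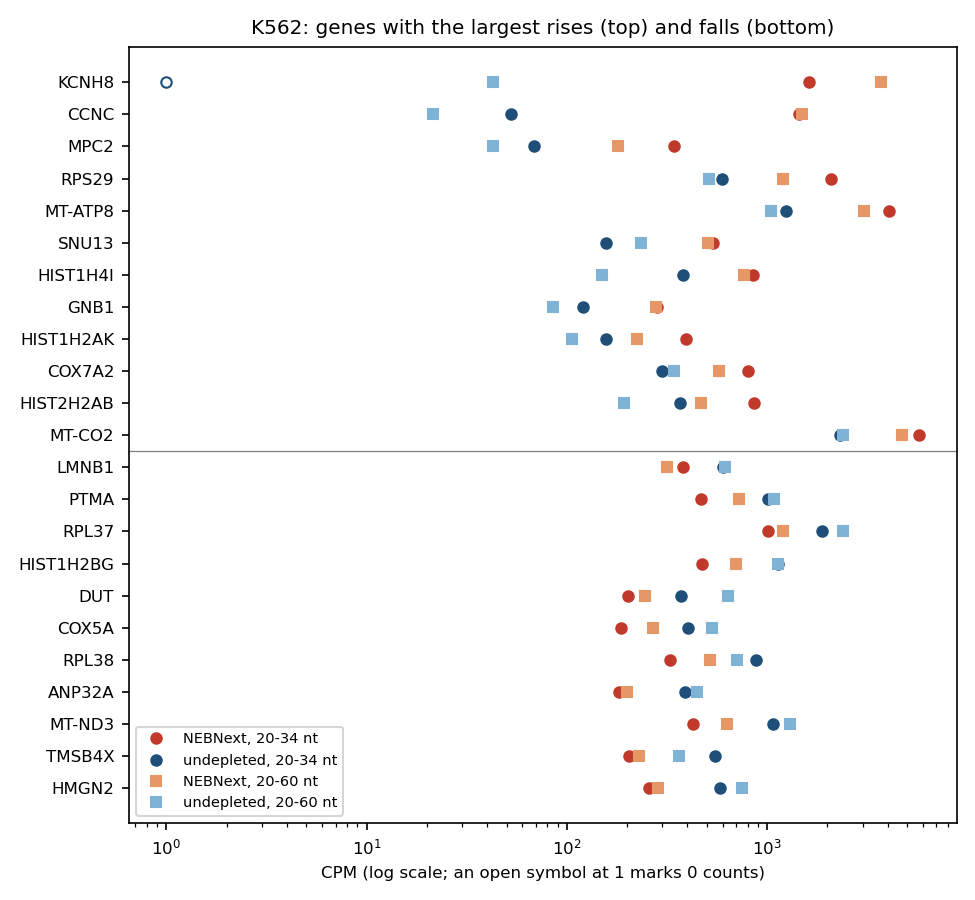
CPM on a log axis (x) of the 12 genes with the largest rises (top) and those with the largest falls (bottom, 11 of the 12) in each of the 4 libraries; circles are 20 to 34 nt, squares 20 to 60 nt, reddish symbols NEBNext and blue symbols undepleted. KCNH8 and CCNC stand far apart from the undepleted libraries, and the open circle is KCNH8 at 0 counts, drawn at 1 because a log axis has no 0.

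The largest rise was that of KCNH8, which encodes a voltage-gated potassium channel (ENST00000328405.6; GRCh38 chromosome 3, 19148454 to 19535646, plus strand, 16 exons). It had 713 counts with NEBNext and 0 undepleted at 20 to 34 nt, and 740 counts with NEBNext and 2 undepleted at 20 to 60 nt. Nearly all counts on KCNH8 thus came from the NEBNext libraries at either size. Against the floor of 3 counts in the undepleted library, KCNH8 was at least 102-fold higher with NEBNext at 20 to 34 nt, and at 20 to 60 nt the ratio was 86.8 (95% interval 23.9 to 718, exact binomial on the counts, counting error only; adjusted p over both sizes 3.04e-94 in edgeR). KCNH8 took 0.162% of the NEBNext library at 20 to 34 nt (95% exact interval 0.15 to 0.174) and 0.371% at 20 to 60 nt (0.344 to 0.398). By count, not corrected for length, it ranked 76th and 16th among all genes of those libraries. The run of 34 purines shown above lies at positions 2137 to 2170 of its coding sequence. The deposited counts are sums over the coding sequence, so where in KCNH8 the footprints lie was not analysed here.

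The second largest rise was at CCNC, which encodes cyclin C, the cyclin of the Mediator kinase module (ENST00000520429.5; chromosome 6, 99542380 to 99568973, minus strand, 12 exons). CCNC had 638 counts with NEBNext and 10 undepleted at 20 to 34 nt, and 300 with NEBNext and 1 undepleted at 20 to 60 nt. The NEBNext and undepleted libraries did not overlap, which the naming rule required. The CPM ratio was 27.5 (95% interval 14.9 to 57.6) at 20 to 34 nt and 70.4 (12.5 to 2790) at 20 to 60 nt, with intervals that cover counting error only (adjusted p 4.28e-61 in edgeR). CCNC took 0.145% and 0.15% of the NEBNext libraries, so unlike KCNH8 its share hardly differed between the size ranges.

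Mitochondrially encoded messages are read by mitochondrial ribosomes inside the organelle and encode 13 subunits of the respiratory chain and ATP synthase. All 13 were tested. Of these, 7 were higher with NEBNext (MT-ATP8, MT-CO2, MT-CYB, MT-ND6, MT-CO3, MT-ND5 and MT-CO1), MT-ND3 was lower, and 5 did not pass the test. Their median log2 fold change was 0.46, against 0.00431 over all genes tested. Of all genes tested, 1.91% were called higher and 0.942% lower, and calls in the later lists are to be read beside these shares. Summed over the 13, they made up 36786 CPM with NEBNext and 24421 undepleted at 20 to 34 nt, and 34876 and 26484 CPM at 20 to 60 nt. Both NEBNext sums lay above both undepleted sums. Without the undepleted 20 to 60 nt library 2 of the 8 calls remained, without the undepleted 20 to 34 nt library 3, and with DESeq2 4.

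MT-ATP8, a small subunit of ATP synthase, had the largest rise among the mitochondrial messages. It had 4070 CPM with NEBNext and 1241 undepleted at 20 to 34 nt, and 3064 and 1046 CPM at 20 to 60 nt. Its lower NEBNext value lay above its higher undepleted value, which the naming rule required. The log2 fold change was 1.72 ± 0.15 (SE, adjusted p 1.75e-26 in edgeR). Its reading frame (mitochondrial genome, 8366 to 8572) shares 46 bases with that of MT-ATP6, a neighbouring subunit, and the capitals above mark that stretch up to the stop codon. MT-ATP6 had 1498 CPM with NEBNext and 1950 undepleted at 20 to 34 nt, and 1923 and 1878 CPM at 20 to 60 nt (log2 fold change -0.16 ± 0.14, adjusted p 0.701 in edgeR). How reads in the shared stretch were assigned is not given in the sources used here, and values of the pair are uncertain to that extent.

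MT-CO2, a subunit of cytochrome c oxidase (7586 to 8269), had 5768 CPM with NEBNext and 2318 undepleted at 20 to 34 nt, and 4712 and 2390 CPM at 20 to 60 nt. The undepleted libraries were close to each other and far below both NEBNext libraries (log2 fold change 1.24 ± 0.14, adjusted p 7.53e-17 in edgeR). The other oxidase subunits rose less, by 0.55 on the log2 scale for MT-CO3 and 0.42 for MT-CO1 (adjusted p 0.00145 and 0.0353 in edgeR). MT-CYB, of complex III, had a log2 fold change of 0.79 (adjusted p 5.06e-06 in edgeR). The calls on MT-CO1 and MT-ND6 were lost under total count scaling.

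MT-ND3, a subunit of complex I (10059 to 10404), moved the other way. It had 428 CPM with NEBNext and 1072 undepleted at 20 to 34 nt, and 631 and 1302 CPM at 20 to 60 nt. Both NEBNext libraries were below both undepleted ones, as the naming rule required (log2 fold change -1.16 ± 0.17, adjusted p 9.73e-09 in edgeR). Complex I was mixed in the other members. MT-ND5 and MT-ND6 rose, with log2 fold changes of 0.52 and 0.66 (adjusted p 0.00733 and 0.0365 in edgeR). MT-ND1, MT-ND2, MT-ND4 and MT-ND4L had log2 fold changes of 0.46, -0.07, 0.36 and 0.09 and were not called. MT-ND4L shares 7 bases with MT-ND4.

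Nuclear genes for the same respiratory complexes did not share this pattern as a group. Of 81 listed, 73 were tested, 5 were higher (COX7A2, COX6C, NDUFA4, ATP5G3 and COX7C), 1 was lower (COX5A), and the median log2 fold change was 0.03, which turned to -0.03 under total count scaling. COX7A2, a small oxidase subunit, had 807 CPM with NEBNext and 300 undepleted at 20 to 34 nt, and 576 and 342 CPM at 20 to 60 nt (log2 fold change 1.32 ± 0.21, adjusted p 2.09e-07 in edgeR). COX5A, another oxidase subunit, had 186 CPM with NEBNext and 405 undepleted at 20 to 34 nt, and 270 and 534 CPM at 20 to 60 nt (log2 fold change -1.01 ± 0.23, adjusted p 0.00143 in edgeR). The groups overlapped for neither gene, which the naming rule required, and these subunits of 1 enzyme stood on opposite sides. With DESeq2, 1 of the 6 calls remained and neither COX7A2 nor COX5A was called. COX5A was also not called without the size term. Among 67 mitochondrial ribosomal protein genes tested, MRPL15 was called higher, MRPS5 was called lower and 65 were not called, beside 2.85% of all genes called. None of the 67 was called under total count scaling, without the low-count filter, without the size term or with DESeq2.

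**Figure D2:**
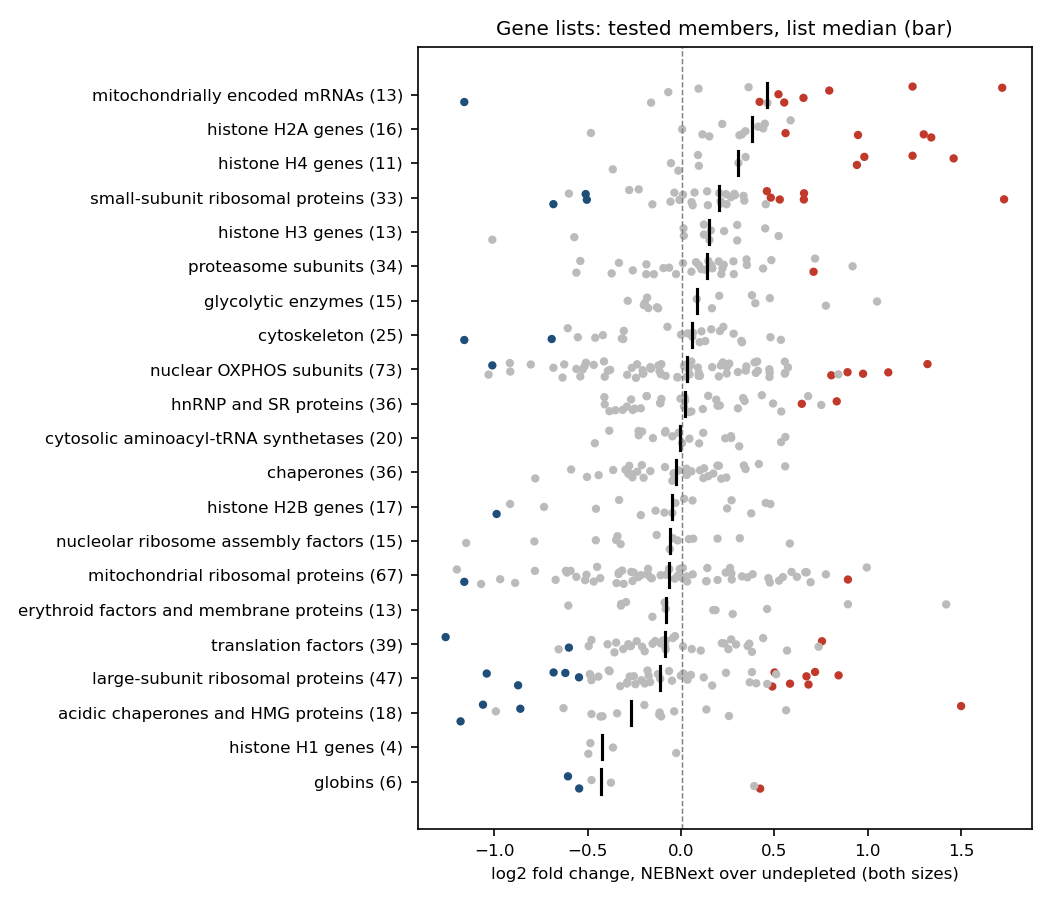
Log2 fold change of NEBNext over undepleted across both sizes (x) for each tested member of the gene lists (y, number tested in brackets); red points were called higher, blue points called lower, grey points not called, black bars are list medians and the dashed line is the median of all genes, with points shifted vertically at random. The mitochondrial messages and the H2A and H4 histone genes have the highest medians, and the H1 histone genes and globins the lowest.

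Ribosomal proteins moved in both directions. Of all genes tested, 1.91% were called higher and 0.942% lower. Of 47 large-subunit genes tested, 7 were higher, 5 lower and 35 not called, with a median log2 fold change of -0.11. Of 33 small-subunit genes, 6 were higher, 3 lower and 24 not called, with a median of 0.21. The summed levels of the large-subunit genes lay between 73163 and 76721 CPM over the 4 libraries and those of the small-subunit genes between 52456 and 57686 CPM. Few of these calls held without an undepleted library: of the 12 large-subunit calls none remained without the 20 to 60 nt one and 1 without the 20 to 34 nt one, and of the 9 small-subunit calls RPS29 alone remained in each. With DESeq2, 2 of the 12 large-subunit calls and 2 of the 9 small-subunit calls remained. Ribosomal protein genes have processed pseudogenes of near-identical sequence, and the counting of shared reads is not given in the sources used here, so their values are uncertain.

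RPS29, a small protein of the 40S subunit (ENST00000245458.10; chromosome 14, 49583572 to 49586376, minus strand), had the largest rise of the ribosomal proteins. It had 2099 CPM with NEBNext and 594 undepleted at 20 to 34 nt, and 1197 and 512 CPM at 20 to 60 nt. Both NEBNext libraries were above both undepleted ones, which the naming rule required. The rise was larger in the shorter fragments, 3.53-fold (95% interval 2.90 to 4.33, counting error only) against 2.34-fold (1.53 to 3.72), with overlapping intervals. The log2 fold change over both sizes was 1.73 ± 0.18 (adjusted p 4.97e-19 in edgeR). Other called rises included RPL18 (log2 fold change 0.84), RPLP0 (0.72), RPLP2 (0.68), RPL39 (0.67), RPS21 (0.66), RPS27 (0.66), RPL30 (0.58), RPS15A (0.53), RPL27 (0.50), RPL10 (0.49) and RPS3A (0.46). Of these, RPL39, RPL30, RPS15A, RPL27 and RPS3A were not called under total count scaling or without the size term. RPS21, RPS27 and RPL10 were also not called without the size term.

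RPL38 and RPL37, both small proteins of the 60S subunit, had the largest falls of the family. RPL38 had 326 CPM with NEBNext and 883 undepleted at 20 to 34 nt, and 521 and 704 CPM at 20 to 60 nt (log2 fold change -1.04 ± 0.19, adjusted p 4.14e-06 in edgeR). It was 2.71-fold lower at the shorter range and 1.35-fold lower at the longer one, where the counting interval of the NEBNext to undepleted ratio, 0.496 to 1.13, includes no difference. RPL37 had 1013 CPM with NEBNext and 1882 undepleted at 20 to 34 nt, and 1202 and 2390 CPM at 20 to 60 nt (log2 fold change -0.87 ± 0.15, adjusted p 7.65e-07 in edgeR). Here the falls were alike, 1.86-fold and 1.99-fold. In neither gene did the kits overlap, which the naming rule required. Other called falls included RPL29 (log2 fold change -0.68), RPL19 (-0.62), RPL35 (-0.55), RPS15 (-0.51) and RPS24 (-0.50). Of these, RPL29, RPL35, RPS15 and RPS24 were not called without the low-count filter or without the size term, and none of the named ones with DESeq2.

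Translation factors, which assist the ribosome in each round of protein synthesis, gave 3 calls: of 39 tested, EIF3L was higher, EIF1AX and EIF3I were lower and 36 were not called. The median log2 fold change was -0.08. With DESeq2 no translation factor was called. EEF1A1, the elongation factor that brings tRNAs to the ribosome, had 14930 and 15300 CPM with NEBNext and 16340 and 17070 CPM undepleted (log2 fold change -0.08 ± 0.12, adjusted p 0.828 in edgeR).

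Replication-dependent histone genes encode the packaging proteins made in bulk when DNA is copied, and their messages end in a stem-loop in place of a poly(A) tail. Of 72 listed, 61 were tested, 8 were higher and 1 was lower, beside 1.91% and 0.942% of all genes tested. The split by histone type was added after the values were seen. All 8 rises were in the H2A genes (4 of 16 tested, median log2 fold change 0.38) and the H4 genes (4 of 11, median 0.31). No H1 gene of 4 or H3 gene of 13 was called by edgeR, with 3 and 4 at an unadjusted p under 0.05 (limma-voom called 2 and 1, DESeq2 none), and the fall was in 1 of 17 H2B genes. The histone types were not tested against each other. None of the 8 calls remained without the undepleted 20 to 60 nt library, while the 4 H4 calls remained with DESeq2 and without the size term.

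The called H4 genes were HIST1H4I, HIST1H4C, HIST1H4B and HIST1H4E. HIST1H4I (chromosome 6, 27138588 to 27139881) had 854 CPM with NEBNext and 379 undepleted at 20 to 34 nt, and 766 and 149 CPM at 20 to 60 nt, where the undepleted value rests on 7 counts. Its log2 fold change was 1.46 ± 0.21 (adjusted p 1.51e-09 in edgeR). HIST1H4C had 2674 CPM with NEBNext and 1041 undepleted at 20 to 34 nt, and 1733 and 1003 CPM at 20 to 60 nt (log2 fold change 1.24 ± 0.16, adjusted p 2.97e-12 in edgeR). In both genes the NEBNext libraries lay above the undepleted ones, which the naming rule required of HIST1H4I. HIST1H4B and HIST1H4E had log2 fold changes of 0.98 and 0.94. Other H4 genes were not called. HIST1H4K had 1294 CPM with NEBNext and 1367 undepleted at 20 to 34 nt, and 1452 and 1238 CPM at 20 to 60 nt (log2 fold change 0.09 ± 0.15, adjusted p 0.875 in edgeR).

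All H4 genes encode near-identical proteins of 309 coding bases, yet their DNA differs, with 79.6% to 100% identity between pairs. The 2 pairs HIST1H4J with HIST1H4K and HIST2H4A with HIST2H4B have identical coding sequences, so reads cannot be told apart within a pair, and none of these 4 genes was called. No stretch of 12 bases was found in all 4 called H4 genes and in none of the other 7. That search covers exact words of that length on the coding strand only.

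Among the H2A genes, HIST1H2AK and HIST2H2AB rose most. HIST2H2AB had 864 CPM with NEBNext and 368 undepleted at 20 to 34 nt, and 466 and 192 CPM at 20 to 60 nt (log2 fold change 1.30 ± 0.21, adjusted p 3.13e-07 in edgeR). HIST1H2AG, at 2908 and 1893 CPM with NEBNext against 1393 and 1302 CPM undepleted, had a log2 fold change of 0.95 ± 0.15 (adjusted p 1.17e-07 in edgeR). HIST1H2BG, the called H2B gene, had 474 CPM with NEBNext and 1130 undepleted at 20 to 34 nt, and 701 and 1131 CPM at 20 to 60 nt (log2 fold change -0.99 ± 0.17, adjusted p 1.57e-06 in edgeR). The undepleted libraries were nearly equal for HIST1H2BG, and both NEBNext libraries lay below them, as the naming rule required. The 4 tested H1 genes had log2 fold changes between -0.50 and -0.03.

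Globins, the oxygen carriers that K562 cells make in embryonic and fetal forms, were also split. Of 10 listed, 6 were tested, with a median log2 fold change of -0.43. The fetal gamma-globin HBG1 had 5258 CPM with NEBNext and 3743 undepleted at 20 to 34 nt, and 4662 and 4076 CPM at 20 to 60 nt (log2 fold change 0.42 ± 0.13, adjusted p 0.0426 in edgeR). Its near-identical neighbour HBG2 had a log2 fold change of 0.39 (adjusted p 0.0669 in edgeR), and the pair should be read as 1 signal. The embryonic epsilon-globin HBE1 had 1260 CPM with NEBNext and 1782 undepleted at 20 to 34 nt, and 1277 and 2412 CPM at 20 to 60 nt (log2 fold change -0.61 ± 0.15, adjusted p 0.00292 in edgeR). HBA1, an alpha-globin with a near-identical copy in HBA2, had a log2 fold change of -0.55 (adjusted p 0.0483 in edgeR). No globin, HBE1 included, was called without the size term or with DESeq2. Among other settings, the call on HBG1 was also lost with DESeq2 size factors and with total count scaling, and that on HBA1 when low genes were left unfiltered. Of 13 tested genes for erythroid transcription factors and membrane proteins, such as GATA1 and TFRC, none was called by edgeR, limma-voom or DESeq2, and 1 had an unadjusted p under 0.05 in edgeR. RHAG, a red cell membrane protein not on that list, was called higher by edgeR (log2 fold change 0.63).

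Genes for acidic histone chaperones and high-mobility-group proteins, which handle and loosen chromatin, gave 3 falls and 1 rise among 18 tested, with a median log2 fold change of -0.27. HMGN2, which binds nucleosomes (chromosome 1, 26472519 to 26475972, plus strand), had 258 CPM with NEBNext and 584 undepleted at 20 to 34 nt, and 285 and 747 CPM at 20 to 60 nt. It was 2.26-fold and 2.62-fold lower, the largest fall among the named genes averaging 50 counts or more (log2 fold change -1.18 ± 0.21, adjusted p 2.12e-06 in edgeR). ANP32A, an acidic leucine-rich protein, had 181 and 200 CPM with NEBNext and 389 and 448 CPM undepleted (log2 fold change -1.06 ± 0.24, adjusted p 0.00143 in edgeR).

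PTMA, the precursor of prothymosin alpha (ENST00000341369.11; chromosome 2, 231708516 to 231713536, plus strand), had 467 CPM with NEBNext and 1009 undepleted at 20 to 34 nt, and 721 and 1088 CPM at 20 to 60 nt. Both NEBNext libraries were below both undepleted ones, as the naming rule required, by 2.16-fold and 1.51-fold (log2 fold change -0.86 ± 0.17, adjusted p 9.39e-05 in edgeR). PTMA has near-identical copies in the genome. NPM3, a nucleophosmin relative, was the member that rose (log2 fold change 1.5, adjusted p 0.00292 in edgeR), on 106 and 25 counts with NEBNext and 17 and 2 undepleted. NPM1 itself was not called, at a log2 fold change of -0.12. No call of this list remained with DESeq2 or without the undepleted 20 to 60 nt library.

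Other genes with large changes belonged to no single list. MPC2, a carrier of pyruvate into mitochondria, had 342 CPM with NEBNext and 68.3 undepleted at 20 to 34 nt, and 180 and 42.7 CPM at 20 to 60 nt (log2 fold change 2.34 ± 0.36, adjusted p 2.47e-08 in edgeR), with 2 counts behind the last value. SNU13, a protein of the U4 snRNP and of box C/D snoRNPs, had 537 and 506 CPM with NEBNext and 158 and 235 CPM undepleted (log2 fold change 1.65 ± 0.25, adjusted p 2.01e-08 in edgeR). GNB1, a G protein beta subunit, had 283 and 280 CPM with NEBNext and 121 and 85.4 CPM undepleted (log2 fold change 1.39 ± 0.31, adjusted p 8.71e-04 in edgeR). In each of these 3 genes both NEBNext libraries exceeded both undepleted ones, which the rule for naming them required. SNU13 was not called with DESeq2.

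On the falling side, TMSB4X, thymosin beta 4, which holds actin monomers, had 204 CPM with NEBNext and 552 undepleted at 20 to 34 nt, and 230 and 363 CPM at 20 to 60 nt (log2 fold change -1.16 ± 0.23, adjusted p 5.21e-05 in edgeR). LMNB1, a lamin of the nuclear envelope, had 381 and 316 CPM with NEBNext and 605 and 619 CPM undepleted (log2 fold change -0.69 ± 0.20, adjusted p 0.0284 in edgeR). These were the calls among 25 cytoskeleton genes tested. ACTB, beta-actin, had 4993 and 5097 CPM with NEBNext and 5435 and 5634 CPM undepleted (log2 fold change -0.07 ± 0.12, adjusted p 0.877 in edgeR). DUT, the enzyme that hydrolyses dUTP, fell 1.85-fold at 20 to 34 nt and 2.61-fold at 20 to 60 nt (adjusted p 0.00145 in edgeR). TMSB4X, LMNB1 and DUT were not called with DESeq2, and LMNB1 and DUT also not without the size term. LMNB1 was not called when low genes were left unfiltered. For TMSB4X at 20 to 60 nt the counting interval of the NEBNext to undepleted ratio, 0.357 to 1.18, includes no difference.

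Calls in housekeeping lists are given beside the 2.85% of all genes tested that were called. By edgeR at an adjusted p under 0.05 there was no call among 36 chaperones, 15 glycolytic enzymes, 20 aminoacyl-tRNA synthetases and 15 nucleolar factors tested, where 4, 4, 3 and 3 had an unadjusted p under 0.05, beside 524 of all 3715 genes. For these lists limma-voom called 2, 3, 1 and 1 genes and DESeq2 none. Of 34 proteasome genes PSMA5 was higher, and of 36 hnRNP and SR protein genes HNRNPA0 and SRSF7 were higher. PSMA5, HNRNPA0 and SRSF7 were not called under total count scaling, without the size term or with DESeq2. GAPDH, often used as a reference gene, had 6019 and 5583 CPM with NEBNext and 4815 and 4354 CPM undepleted (log2 fold change 0.40 ± 0.13, adjusted p 0.0551 in edgeR).

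The changes at the 2 size ranges come from pairs that share no library. Over the 394 genes averaging 100 counts or more, the log2 ratio of NEBNext to undepleted at 20 to 34 nt and that at 20 to 60 nt correlated across genes at r 0.811 (Pearson) and rho 0.584 (Spearman), and 282 genes (71.6%) had the same sign. KCNH8 and CCNC carry much of the first value. Without them r was 0.634 and rho 0.577. Genes are not independent replicates, so these values are a description.

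**Figure D3:**
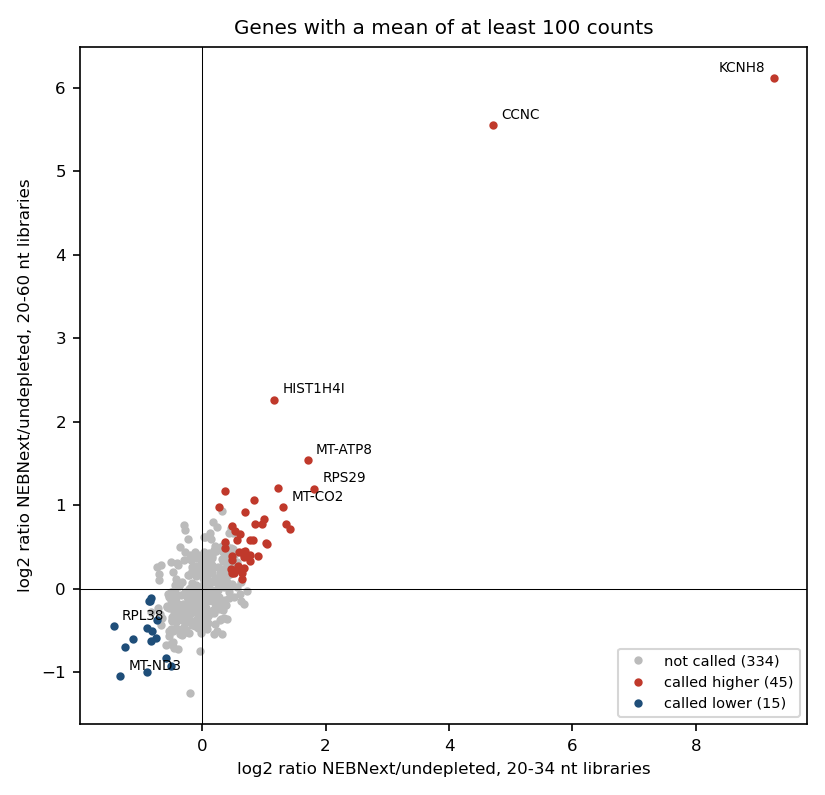
Log2 ratio of NEBNext to undepleted CPM in the 20 to 34 nt libraries (x) and in the 20 to 60 nt libraries (y), 1 point for each of 394 genes, with 0.5 counts added to every count; red points were called higher, blue points called lower and grey points not called over both sizes. KCNH8 and CCNC stand apart from all other genes at both sizes, and the place of KCNH8 on the x axis depends on the 0.5 added to its 0 counts.

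The spread of the log2 ratios across these genes, as an SD with the variance of counting taken out, was 0.422 between NEBNext and undepleted at 20 to 34 nt and 0.312 at 20 to 60 nt when KCNH8 and CCNC were left out. The spread between the undepleted libraries of both sizes was 0.0636, and that between the NEBNext libraries 0.229. With KCNH8 and CCNC the 4 values were 0.662, 0.513, 0.192 and 0.236. So the spread between kits was larger than that between size ranges in either case. Which kit differed more between sizes depended on the genes: over those averaging 200 counts or more, KCNH8 and CCNC included, the spread was 0.274 for undepleted and 0.262 for NEBNext libraries. The separate K562 kit table gives an outside reference, though it was made in another experiment. Against its 2 undepleted libraries, the undepleted libraries studied here had a spread of 0.146 to 0.22 and the NEBNext libraries 0.521 to 0.577 with KCNH8 and CCNC included, and 0.128 to 0.153 and 0.351 to 0.454 without them.

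Features of the coding sequence were set against the log2 fold change for the 371 of 394 genes with a GENCODE 29 coding sequence. Spearman's rho across genes was -0.21 for the share of A and G, -0.27 for the longest run of A and G, -0.14 for length and -0.02 for GC content. Pearson's r was -0.18, -0.017, -0.043 and -0.059 in the same order. The run length was added after the values were seen. Over 797 genes averaging 50 counts or more, rho was -0.19, -0.17, -0.081 and -0.052. These are weak correlations over genes that share all 4 libraries.

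By medians, the coding sequences of genes called lower held 57.0% A and G, those of genes called higher 52.9%, and all genes tested 53.4%. Called genes of both directions had short coding sequences, with medians of 530 bases for those higher and 450 for those lower, against 1270 for all genes tested. Of the genes called higher 61 of 71, and of those lower 21 of 35, averaged 50 counts or more. The lengths were not matched for abundance, and its part in them was not tested. PTMA, at 74.5% A and G, HMGN2 at 68.9%, TMSB4X at 65.9% and ANP32A at 65.2% were among the falls, as was MT-ND3 at 40.2%. The falls COX5A, DUT (51.5%) and HIST1H2BG (52.9%) also lay below the 53.4% of all genes tested. RPS29 and MT-ATP8, among the rises, held 48.2% and 44.6%. RPL39 and HIST2H2AB, also called higher, held 58.2% and 55.1%, above the 53.4% of all genes tested. Genes of both directions thus lay on both sides of that median.

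**Figure D4:**
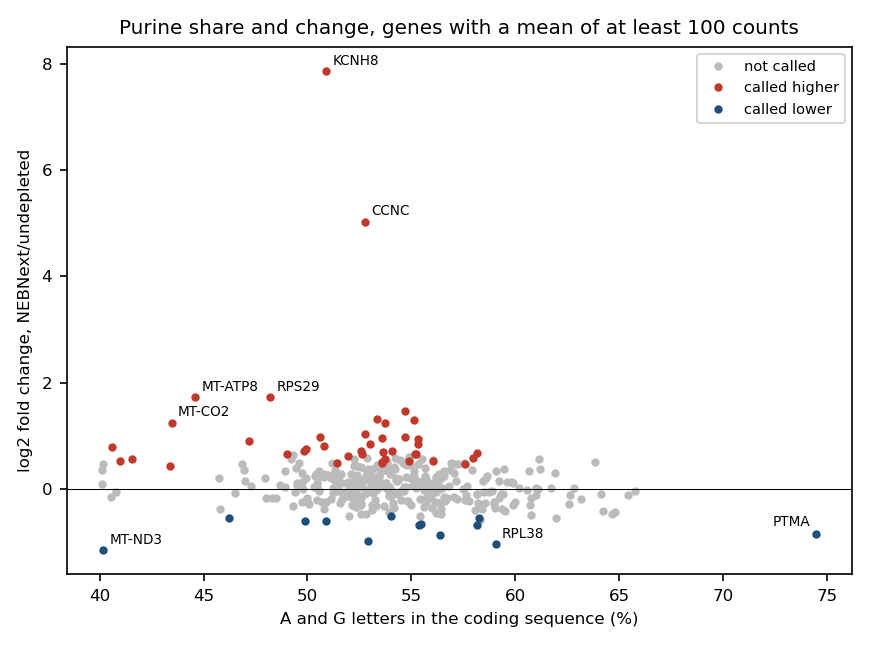
Share of A and G letters in the coding sequence in percent (x) and log2 fold change of NEBNext over undepleted (y) for the genes averaging 100 counts or more and a GENCODE 29 coding sequence; red points were called higher and blue points called lower. PTMA lies alone at the right with a negative change, MT-ND3 at the left also has one, and the heights of KCNH8 and CCNC are fitted values that depend on the prior count.

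A run of at least 34 purines on the coding strand occurs in 184 of 18948 coding sequences (0.971%) and in 57 of 3599 tested ones (1.58%). Of these 57, KCNH8 alone was called higher and none lower, 27 had a log2 fold change above 0 and the median was -0.04. That is 1 call in 57 genes beside 1.91% of all genes called higher, a share near the background. A run as long as the 29 purines of PTMA occurs in 103 tested genes (2.86%), with a median of -0.06, of which 1 was called higher and 1 lower. The runs are described here as letters in a sequence and their part in the counts was not tested.

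HEK293T, a human embryonic kidney line, is the other line of the series with NEBNext libraries, 2 against 2 undepleted ones from fragments labelled 15 to 35 nt. Of the 12 genes with the largest rises in K562, 11 were tested there, all 11 had a positive log2 fold change and 6 were called. Of the 12 with the largest falls, 9 were tested, 8 had a negative log2 fold change and 4 were called. The shares of all genes called or of either sign in HEK293T are not given here, so these counts have no background beside them. HIST1H4I had 33.3 and 65.2 CPM undepleted and 203 and 288 CPM with NEBNext in HEK293T (log2 fold change 2.29 ± 0.36, adjusted p 1.42e-06 in edgeR). ANP32A had 442 and 450 CPM undepleted and 180 and 184 CPM with NEBNext (log2 fold change -1.29, adjusted p 4.18e-05 in edgeR). Neither pair of groups overlapped. KCNH8 had 0 counts in all 4 HEK293T libraries, so no change could be measured.

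The difference of the NEBNext effect between the tables was tested with an interaction term, and 14 of 4736 genes (0.296%) passed at an adjusted p in edgeR under 0.05. CCNC was among them. In HEK293T it had 75.0 and 58.7 CPM undepleted and 75.0 and 119 CPM with NEBNext, so that its log2 fold change was larger in K562 by 4.38 ± 0.63 (adjusted p of the difference 7.13e-06 in edgeR, resting on 10 and 1 undepleted counts in K562). For RPS29, MT-ATP8, SNU13, MPC2, HMGN2, ANP32A, RPL37 and PTMA the difference did not pass, with adjusted p between 0.187 and 1. Leaving out either undepleted HEK293T library left no gene called by edgeR, with 281 and 283 genes at an unadjusted p under 0.05, and 1 gene was called without the second NEBNext library of HEK293T. Without the NEBNext 20 to 34 nt, the NEBNext 20 to 60 nt or the undepleted 20 to 60 nt library of K562, 3, 6 and 5 genes were called. Cell line, size range and experiment cannot be told apart in this comparison.

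**Figure D5:**
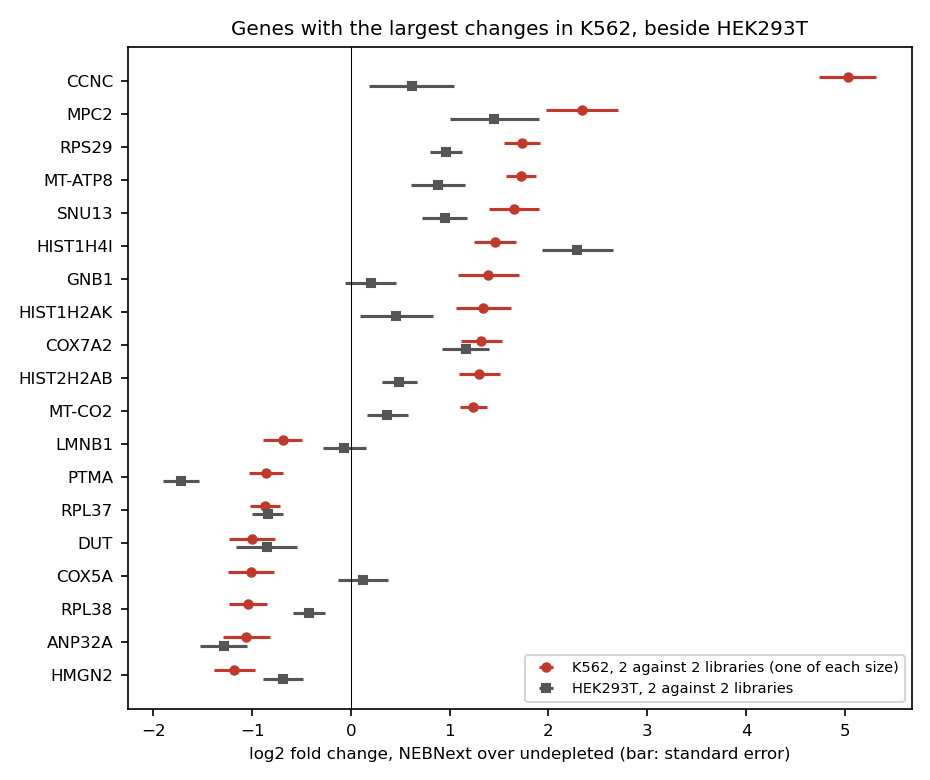
Log2 fold change of NEBNext over undepleted (x, bars are standard errors) in K562 (red circles, 1 library of each size for each kit) and HEK293T (grey squares, 2 libraries for each kit) for genes with the largest changes in K562 that were tested in both lines and are named here. Apart from COX5A the signs match, and CCNC is the gene with the widest gap.

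Ribo-Zero Plus also digests rRNA with a nuclease, and 1 library of the K562 kit table was made with it without further additions. KCNH8 had 2113 CPM in that library and 28.2 and 43.6 CPM in the undepleted libraries of the same table. CCNC, in contrast, had 65.8 CPM with Ribo-Zero Plus and 69.6 and 73.7 CPM undepleted. Of the 12 rises, 8 had a log2 ratio of Ribo-Zero Plus to undepleted above 0, with a median of 0.14 and a range of -0.13 to 5.88, and of the 12 falls 5 had one below 0, with a median of 0.03. With 1 library there is no replicate check of these ratios, and the share of all genes above or below 0 is not given here.

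The identity of the cells was checked with marker genes. All 12 erythroid markers of K562 had counts, with summed levels of 13172, 11249, 11978 and 11887 CPM in the NEBNext and undepleted 20 to 34 nt and the NEBNext and undepleted 20 to 60 nt libraries. Of 5 kidney and neural-type markers of HEK293 lines, SALL2 alone had counts (34.0 to 85.4 CPM) and PAX2, CDH2, NEFM and EYA1 were at 0. Lymphoid and myeloid markers summed to 22.7 to 85.4 CPM, with CD3E, MS4A1 and CD14 at 0. Depth also moved with the groups: both NEBNext libraries were deeper than the undepleted one of the same size, 6840 to 10256 genes had counts, and 3 counts were worth 6.80 CPM in the deepest library and 64.0 CPM in the shallowest. The part of depth in the calls was not tested. All levels are relative to the library total, so a loss of some messages and a gain of the others cannot be told apart.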

How the data were processed

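Footprint libraries were compared in the deposited table of K562 size selections. Its values are counts, whole numbers of reads on the coding sequence of 1 transcript per row, as deposited by the authors. CASAVA 1.8, STAR and GRCh38 (hg38) are named in the submitters' processing notes. The annotation release, the treatment of reads that match several places and of duplicates, and the use of strand are not given in the sources used here. Copies made by PCR are not independent molecules, and the intervals and floors allow for counting error alone. RPM tables and the HEK293FT table were not used here, and reads on rRNA were not analysed here. Samples were grouped by title.

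The quasi-likelihood test of edgeR 4.0.16 (R 4.3.3, limma 3.58.1) was used with TMM factors, with low genes removed by filterByExpr (minimum count 10), and p-values were adjusted by Benjamini-Hochberg over all genes tested. The model had terms for depletion and size range, which left 1 residual degree of freedom. The prior degrees of freedom were infinite, so that all genes share a spread that follows a trend with abundance. The SE was taken from the log2 fold change and the F statistic. The size range in the labels pairs the libraries. Deviations of the libraries of one size from their group means correlated with r 0.202 over 394 genes, and 0.0873 without KCNH8 and CCNC. Log2 ratios at 1 size used 0.5 counts added to each count. Exact intervals are at 95%, and the floor is 3 counts. DESeq2 1.42.0 and limma-voom were alternatives. Tables were never pooled except in the interaction fit of 8 libraries.

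Named are the 12 top rises and 12 top falls by log2 fold change among genes called at 0.05 that averaged 50 counts or more and had both NEBNext libraries on the same side of both undepleted ones, and of each gene list the 3 most abundant and every called member. Members and lists were chosen with earlier results of these data known. GENCODE 29 held a coding sequence for 97.28% of 19478 transcripts, though the authors may have used another release. Symbols on more than 1 row numbered 31. Some genes that met the rule are not reported here.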

Additional observations from a re-analysis of the deposited data

Results flagged for a closer look

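The NEBNext effect differed between K562 and HEK293T, by the edgeR interaction test, at 6 of the genes named here. That test called 14 genes, against 10 under total count scaling and 8 without the size term. Its calls also changed with single libraries, as given above. Which of the 6 genes remained called in those fits is not given here. CCNC rose more in K562, by a log2 difference of 4.38 (SE 0.63). MT-ND3 fell in K562 and had a log2 difference of -5.17 (SE 0.88, edgeR adjusted p 0.000312). In HEK293T it had 8.33 and 0 CPM undepleted and 30.0 and 94.5 CPM with NEBNext, which are few counts. RPL18 and HIST1H2AG rose in K562 and had log2 differences of 0.749 and 0.851 (edgeR adjusted p 0.0381 and 0.0385). For ATP5G3, a subunit of ATP synthase, the difference was 1.05 (edgeR adjusted p 0.0076), with log2 fold changes of 0.89 in K562 and -0.18 in HEK293T. RPL29 had a difference of -0.932 (edgeR adjusted p 0.0076), with a log2 fold change of -0.68 in K562 and 0.21 in HEK293T. The lines were profiled in separate experiments with different size ranges, and these cannot be told apart from the cell line.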

How the results depend on the processing

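Without the replicate block (the size term that pairs the libraries) 40 genes were called, all among the 106. DESeq2 called 16, limma-voom, added after seeing the data, called 210 (105 higher, 105 lower), and leaving out each library in turn, with the size term dropped, gave 9 to 309. No named gene that was called reversed under the 12 alternatives. Of 67, 34 kept their call without the block, 12 and 7 without the undepleted 20 to 34 nt and 20 to 60 nt libraries, and 16 of 60 with DESeq2. The cause was not tested.

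The spread at 20 to 34 nt was 0.533, 0.904, 0.394 and 0.422, and at 20 to 60 nt 0.413, 0.70, 0.286 and 0.312, over genes averaging 50 counts or more, over those averaging 200 or more, by a scaled median absolute deviation, and without KCNH8 and CCNC, which was added after seeing the data. The correlation between sizes was 0.639 over genes averaging 50 counts or more, 0.634 without KCNH8 and CCNC, and 0.584 by Spearman's rho. The genes that differed from HEK293T numbered 14, or 8 without the replicate block and 0 to 20 with each library left out. The undepleted 20 to 60 nt library of 46858 counts limits the precision of its ratios.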
